A study of Mus musculus with 18 samples.

Results

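The genes examined were those whose RNA moved the same way in K7M2 tumors of both hosts when Atrx was knocked down. K7M2 is a mouse osteosarcoma line of Balb/c origin. All 18 tumors of the series entered 1 fit of 9 ATRX-KD against 9 ATRX-CT tumors with the host as a block. A gene was counted as shared when its knock-down term had an adjusted p under 0.05 (limma, Benjamini-Hochberg) and its log2 difference had the same sign in each host. Of the 20878 genes in the deposited matrix, 14803 averaged 0.1 FPKM or more and were tested. Of these, 305 were shared, 117 lower and 188 higher in ATRX-KD tumors, which is 2.06% of the tested genes (0.79% lower and 1.27% higher).

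The 4 groups crossed 2 kinds of grafted cells with 2 hosts. ATRX-CT cells carried a control shRNA and ATRX-KD cells an shRNA against ATRX. The hosts were immunocompetent Balb/c mice (4 ATRX-CT and 4 ATRX-KD tumors) and NSG mice (5 and 5), a NOD strain that carries the Prkdc scid and Il2rg mutations and lacks T, B and NK cells. Mice were 6 to 8 weeks old, each was injected with 500000 cells, and each library came from the tumor of a different mouse. Both hosts received the same 2 cell populations, and whole cages were assigned to 1 kind of cells, so anything else that differed between the populations or the cages cannot be told apart from the knock-down. Cages are not in the labels. The T cell list summed to 32.6 to 59.9 FPKM in Balb/c tumors and to 1.39 to 7.14 FPKM in NSG tumors. The 4 Y-linked genes summed to at most 0.0115 FPKM in Balb/c tumors but to 24.2 to 34.3 FPKM in NSG ATRX-CT and 13.1 to 21.2 FPKM in NSG ATRX-KD tumors, although the methods name female mice and K7M2 is a female line. Of the osteoblast markers, Runx2 lay between 3.54 and 11.1 FPKM and Col1a1 between 56.6 and 498.6 FPKM, while Ibsp and Bglap had a median of 0 FPKM. Library depth is not in the files. The step between low FPKM values gave estimates of 14650000 to 25000000 fragments per tumor. The libraries also differed in how values changed with transcript length: the slope of the log2 deviation against log2 length ran from -0.15 to 0.21 and was positive in 6 tumors, 2 of each Balb/c group and 1 of each NSG group.

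ATRX is a chromatin remodeler of the SWI/SNF family that works with the chaperone DAXX to place the histone variant H3.3 at telomeres, pericentromeric repeats and imprinted regions. It binds guanine-rich repeats that can fold into G-quadruplexes, and its loss in sarcomas goes along with the alternative lengthening of telomeres. Because these tumors were profiled whole, RNA of the grafted cells and of host vessels, fat and immune cells was measured together, and fewer cells of a type cannot be told apart from less RNA per cell.

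The target itself was first examined. In Balb/c tumors, Atrx stood at 13.4, 26.0, 10.3 and 20.7 FPKM in the ATRX-CT tumors and at 21.5, 7.88, 9.11 and 17.3 FPKM in the ATRX-KD tumors. In NSG tumors it stood at 16.2, 11.6, 24.4, 15.1 and 20.5 FPKM against 8.42, 16.4, 8.59, 8.88 and 8.60 FPKM. The NSG groups were apart but for 1 ATRX-KD tumor (mouse 27), whereas only 2 of 4 Balb/c ATRX-KD tumors lay below every control. The host-blocked log2 difference of Atrx was -0.56 (SE 0.21) and did not pass the test across all genes (limma, adjusted p = 0.167). The exact two-sided permutation test on Atrx alone, over 17640 arrangements within hosts, gave p = 0.0328. With the length trend removed from each library the Atrx difference was -0.48 (SE 0.10) with an adjusted p of 0.0162 (limma), and all 5 NSG ATRX-KD tumors then lay below the controls, against 2 of 4 in Balb/c mice. Mean Atrx was 17.6 FPKM in ATRX-CT and 14.0 FPKM in ATRX-KD tumors of Balb/c mice, and 17.6 and 10.2 FPKM in NSG mice.

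**Figure D1:**
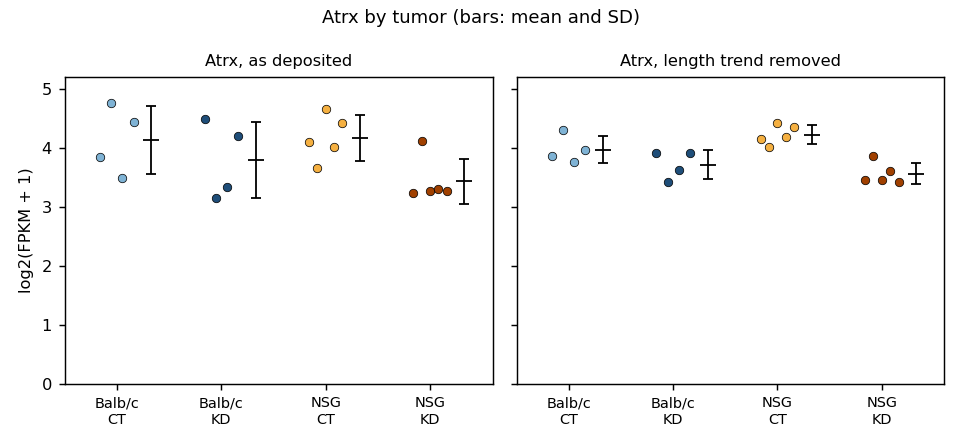
Atrx RNA of each tumor in log2(FPKM + 1), as deposited (left) and after the trend with transcript length was removed from each library (right), for control (CT) and knock-down (KD) tumors of both hosts. Each point is 1 tumor, and bars give the mean and SD of 4 or 5 tumors. On the right, the 5 NSG knock-down tumors lie below the 5 NSG controls.

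Across the 14803 tested genes, 55.2% had the same sign in both hosts (28.1% negative and 27.1% positive). The 117 lower genes had a median host-blocked difference of -0.51 on the log2(FPKM + 1) scale, against -0.0016 for all tested genes, and ranged from -0.18 to -1.63. The 188 higher genes had a median of 0.46 and ranged from 0.18 to 1.32. Because of the added 1, changes of genes near 0 FPKM appear smaller than they were. The difference was larger in NSG than in Balb/c tumors for 81 of the 117 lower and for 142 of the 188 higher genes. A shared gene needed only the same sign in each host. In Balb/c tumors alone, 75 lower and 91 higher shared genes had an unadjusted p under 0.05 (limma, 4.26% of all tested genes). In NSG tumors alone, 114 and 186 had one (26.6% of all tested genes). The shared genes were called from these same tumors, so larger shares than over all tested genes were built in and are no separate support. On the log2(FPKM + 1) scale, 6 lower and 10 higher genes differed by at least 1 (0.0405% and 0.0676% of tested genes), a limit that weakly expressed genes can miss with a larger fold in FPKM. The lower genes were A330076H08Rik, Cx3cr1, Wisp2, Crct1, Gm38403 and Pla2g5, and the higher genes were Murc, Ogn, Tspan11, Nov, Tnfrsf11b, Klhl40, Mrgprf, Rbp7, Kdelr3 and Hopx. Of the 305 shared genes, 19 lower and 33 higher genes showed no overlap between ATRX-KD and ATRX-CT tumors in either host. The same absence of overlap held for 0.419% of all tested genes, a comparison that the choice of the shared genes from these tumors also favored. Non-coding genes made up 21 of the 117 lower and 0 of the 188 higher genes, against 6.61% of the tested genes.

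**Figure D2:**
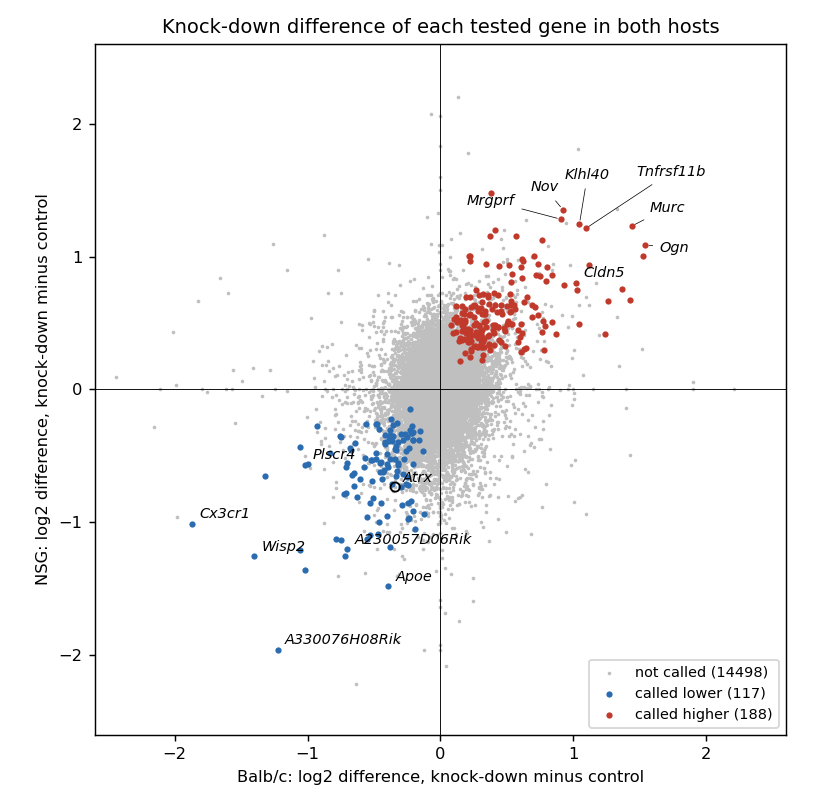
Each point is 1 tested gene, with its log2 difference (ATRX-KD minus ATRX-CT) in Balb/c tumors on the horizontal axis and in NSG tumors on the vertical axis. The 117 shared lower genes (blue) lie in the lower left and the 188 shared higher genes (red) in the upper right; the circle marks Atrx, and 10 genes beyond 2.6 on either axis, none of them shared, are not drawn.

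The hosts share no tumor, so calls in one were read in the other. In the 10 NSG tumors alone, 989 genes passed an adjusted p of 0.05 (limma, 6.68% of tested genes), 435 lower (2.94%) and 554 higher (3.74%). Of these, 703 (71.1%) had the same sign in Balb/c tumors, but only 83 also had an unadjusted p under 0.05 there with the same sign, and 2 with the opposite sign. Their median size was 0.52 (log2) in NSG tumors, and the median in the NSG direction was 0.09 in Balb/c tumors. In the 8 Balb/c tumors alone only Mcpt2 (0.00676% of tested genes), a mast cell protease, passed (limma, adjusted p = 0.030), and its NSG difference was 0.07 with the opposite sign. At an unadjusted p under 0.05 the Balb/c fit gave 630 genes (4.26% of those tested), 72.4% of them with the same sign in NSG tumors. An unadjusted p under 0.05 in each host alone was met by 103 genes lower in both (0.696%), 114 higher in both (0.77%) and 29 of opposite sign (0.196%). No gene had an interaction of knock-down and host at an adjusted p under 0.05 (limma), while 1527 genes (10.3%) had an unadjusted p under 0.05 and 1985 passed with library weights and a robust prior.

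The gene with the largest difference was A330076H08Rik, a non-coding gene at chr7:61943901-61982303 (mm10, minus strand). A second lower non-coding gene, A230057D06Rik, lies on the same strand 16327 bases away at chr7:61705850-61927574, and the annotated microRNA genes of the Mir344 family lie in and around the pair. The region is next to the imprinted genes Ndn, Magel2, Mkrn3 and Peg12. The windows from 250 bases before to 50 bases after the RefSeq start of both genes (GRCm38.p6) are shown because the pair includes the gene of the largest difference and moved together. Neither holds a CG dinucleotide, whereas the median over 11566 tested genes with a window was 20. No capitals are used, since none of the searched motifs matched there. The first window is chr7:61982306-61982605 and the second chr7:61927525-61927824, both on the minus strand. The first lies just outside the A330076H08Rik position given above, since its RefSeq start differs from that of the deposited annotation.
A330076H08Rik: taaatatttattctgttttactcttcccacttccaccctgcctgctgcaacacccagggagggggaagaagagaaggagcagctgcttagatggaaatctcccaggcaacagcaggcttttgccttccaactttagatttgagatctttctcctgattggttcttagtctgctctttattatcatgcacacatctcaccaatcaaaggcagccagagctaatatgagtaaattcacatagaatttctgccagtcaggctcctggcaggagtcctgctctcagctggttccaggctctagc
A230057D06Rik: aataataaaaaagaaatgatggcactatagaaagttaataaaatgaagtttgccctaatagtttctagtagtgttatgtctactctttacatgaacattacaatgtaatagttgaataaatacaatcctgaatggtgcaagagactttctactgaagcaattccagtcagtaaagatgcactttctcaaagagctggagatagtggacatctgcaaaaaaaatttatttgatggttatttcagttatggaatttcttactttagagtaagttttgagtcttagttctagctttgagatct

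A330076H08Rik stood at 0.701, 0.822, 2.62 and 3.05 FPKM in Balb/c ATRX-CT tumors and at 0, 0.264, 0.125 and 0.0799 FPKM after the knock-down. In NSG mice it stood at 5.30, 1.95, 4.38, 3.73 and 3.35 FPKM against 0.239, 0.306, 0.105, 0.222 and 0.0635 FPKM. Every knock-down tumor lay below every control tumor, and 3 of the 9 knock-down tumors were at or under the level of 3 fragments (0.0716 to 0.122 FPKM, an estimate that covers counting error only). The host-blocked difference was -1.63 (SE 0.18, limma adjusted p = 0.000621), with -1.22 in Balb/c and -1.96 in NSG tumors. A230057D06Rik averaged 0.937 ± 0.562 FPKM (SD, n = 4) in Balb/c controls and 0.153 ± 0.0266 (n = 4) in knock-down tumors, and its difference was -0.98 (SE 0.13, limma adjusted p = 0.000919). Both genes kept their call and direction in every alternative fit that tested them (28 for A330076H08Rik and 27 for A230057D06Rik). The threshold of 1 on the log2 difference was not among these fits, and A230057D06Rik did not reach it. The imprinted neighbors did not pass the test: Ndn, Mkrn3 and Peg12 had differences of 0.16, -0.13 and 0.26 with limma adjusted p of 0.604, 0.613 and 0.492. The next gene on the same strand, B230209E15Rik, had a difference of -0.18 (limma adjusted p = 0.0914) at a mean of only 0.109 FPKM.

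Among the lower protein-coding genes without overlap in either host were the scramblase Plscr4 and the small GTPase Rac3. Plscr4, which belongs to the proteins that move phospholipids between membrane leaflets, stood at 5.90, 5.30, 5.57 and 7.76 FPKM in Balb/c controls and at 2.32, 2.90, 2.48 and 2.33 FPKM in Balb/c knock-down tumors. In NSG tumors Plscr4 stood at 4.94, 5.75, 6.75, 4.61 and 5.49 FPKM against 3.35, 4.40, 3.02, 3.27 and 2.96 FPKM. The groups did not overlap in either host, and the host-blocked difference was -0.77 (SE 0.10, limma adjusted p = 0.000789). Rac3, which acts on the actin cytoskeleton, stood at 3.11 to 4.38 FPKM in Balb/c and 4.10 to 5.36 FPKM in NSG controls, and at 1.79 to 2.91 and 2.05 to 2.38 FPKM in the knock-down tumors (difference -0.71, SE 0.09, limma adjusted p = 0.000676). Pcca, a subunit of the mitochondrial propionyl-CoA carboxylase, was lower by a similar amount in both hosts (-0.61 in Balb/c and -0.67 in NSG tumors, limma adjusted p = 0.000789). Its neighbors Tm9sf2 and Ggact on chromosome 14 were shared lower genes too, with differences of -0.39 and -0.76. Lats2, a kinase of the Hippo pathway, fell by 0.64 (SE 0.11, limma adjusted p = 0.00574), but 40.6% of its 75-base windows also occur in the annotated transcript Gm49361. The other lower genes that the rule named, all without overlap in either host, were Ddx26b, Pcbp3, Amdhd1, Fgd3, Ccdc159 and Slc22a4, with differences from -0.40 to -0.67. Ddx26b differed mostly in NSG tumors (-1.05, against -0.19 in Balb/c tumors), and its call was lost in 8 of 28 alternatives.

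The gene with the largest rise after the knock-down was Murc. Murc, a caveola protein of muscle cells that is also named Cavin4, stood at 0.787, 0.298, 2.35 and 0.574 FPKM in Balb/c controls and at 4.86, 4.67, 3.77 and 3.20 FPKM in Balb/c knock-down tumors. In NSG tumors Murc stood at 3.94, 1.77, 3.36, 2.36 and 2.08 FPKM against 6.55, 8.26, 6.89, 7.31 and 8.53 FPKM. Its groups did not overlap in either host, and the difference was 1.32 (SE 0.16, limma adjusted p = 0.000621). Klhl40, a Kelch protein of the muscle sarcomere, stood at 0.549 to 1.12 FPKM in Balb/c and 0.895 to 1.90 FPKM in NSG controls and at 1.58 to 4.81 and 3.31 to 6.69 FPKM in knock-down tumors. The Klhl40 difference was 1.16 (SE 0.15, limma adjusted p = 0.000789). Of the 12 tested genes of the skeletal muscle list, 0 were shared. Only 2.06% of all tested genes were shared, so a list of this size can hold none without differing from the rest. In both hosts, 8 of the 12 were negative, against 28.1% of all tested genes. The summed level of the list ranged from 4.64 to 63.2 FPKM in Balb/c and from 4.66 to 617.1 FPKM in NSG tumors. The 250 bases before the RefSeq start of Murc (chr4:48663264-48663513, plus strand) and Klhl40 (chr9:121777357-121777606, plus strand) are shown because both were among the largest rises without overlap. Capitals mark TATAAA in Murc and, in Klhl40, a G-quadruplex pattern on the opposite strand (4 runs of at least GGG with 1 to 7 bases between).
Murc: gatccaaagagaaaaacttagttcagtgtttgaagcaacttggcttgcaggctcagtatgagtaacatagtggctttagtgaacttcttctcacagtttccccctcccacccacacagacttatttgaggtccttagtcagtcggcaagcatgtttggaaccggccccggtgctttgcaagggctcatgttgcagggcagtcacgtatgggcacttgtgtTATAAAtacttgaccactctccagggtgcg
Klhl40: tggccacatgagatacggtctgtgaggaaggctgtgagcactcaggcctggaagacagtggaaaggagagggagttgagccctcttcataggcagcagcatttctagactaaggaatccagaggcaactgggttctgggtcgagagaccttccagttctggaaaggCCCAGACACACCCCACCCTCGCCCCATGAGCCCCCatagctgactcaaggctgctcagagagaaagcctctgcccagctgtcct

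The G-quadruplex pattern was searched on both strands in all 300-base windows. It was in 25.2% of 143 higher and 21.5% of 93 lower genes with a window, against 26.1% of the 11566 tested genes. TATAAA was in 6.29% and 8.6% against 8.3%. The median number of CG dinucleotides was 19 in higher and 14 in lower genes. A match only says that these letters are in the window.

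The lists of collagen and matrix genes and of matrix metalloproteinases and their inhibitors held no shared gene (0 of 21 and 0 of 16 tested). With 2.06% of all tested genes shared, lists of this size can hold none without differing from the rest. Tnfrsf11b encodes osteoprotegerin, the soluble decoy receptor that blocks osteoclast formation. It stood at 0.716, 0.865, 1.41 and 0.206 FPKM in Balb/c controls and at 3.30, 2.31, 4.20 and 1.61 FPKM in Balb/c knock-down tumors. In NSG tumors Tnfrsf11b stood at 1.51, 0.729, 0.625, 2.06 and 1.30 FPKM against 3.78, 3.56, 3.95, 5.06 and 4.05 FPKM. Its groups did not overlap in either host, as its naming required (difference 1.16, SE 0.15, limma adjusted p = 0.000789). Of the 9 tested osteoclast genes, 0 were shared. Nov, Wisp2 and Ogn, which overlap between groups in 1 host, were named after their values had been seen. Nov, a matricellular protein of the CCN family (CCN3), rose by 1.16 (SE 0.18, limma adjusted p = 0.00291), from a mean of 5.51 to 12.4 FPKM in Balb/c and from 8.70 to 23.5 FPKM in NSG tumors. Wisp2, of the same family (CCN5), fell by 1.32 (SE 0.23, limma adjusted p = 0.00744), from 106.7 to 46.1 FPKM and from 113.2 to 46.2 FPKM. Nov overlapped between groups in Balb/c mice, where 1 knock-down tumor (mouse 60) was at 5.41 FPKM, and Wisp2 overlapped there through mouse 58 at 92.6 FPKM. Ogn, the matrix proteoglycan osteoglycin, rose from 26.9 to 91.9 FPKM in Balb/c and from 30.5 to 65.8 FPKM in NSG tumors (limma adjusted p = 0.0138). Phex, a phosphate-regulating peptidase of bone, was the only shared gene of 10 tested osteoblast markers (0.74, SE 0.17, limma adjusted p = 0.0335). Other higher genes without overlap that the rule named were Cldn5, Mest, Tmem255a, Rnf113a1, Tspan5, Uchl3, Pard6b and Map2k6, with differences from 0.57 to 0.90. Of the Mest exon bases, 32.9% lie opposite Copg2, so its reads are less certain.

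**Figure D3:**
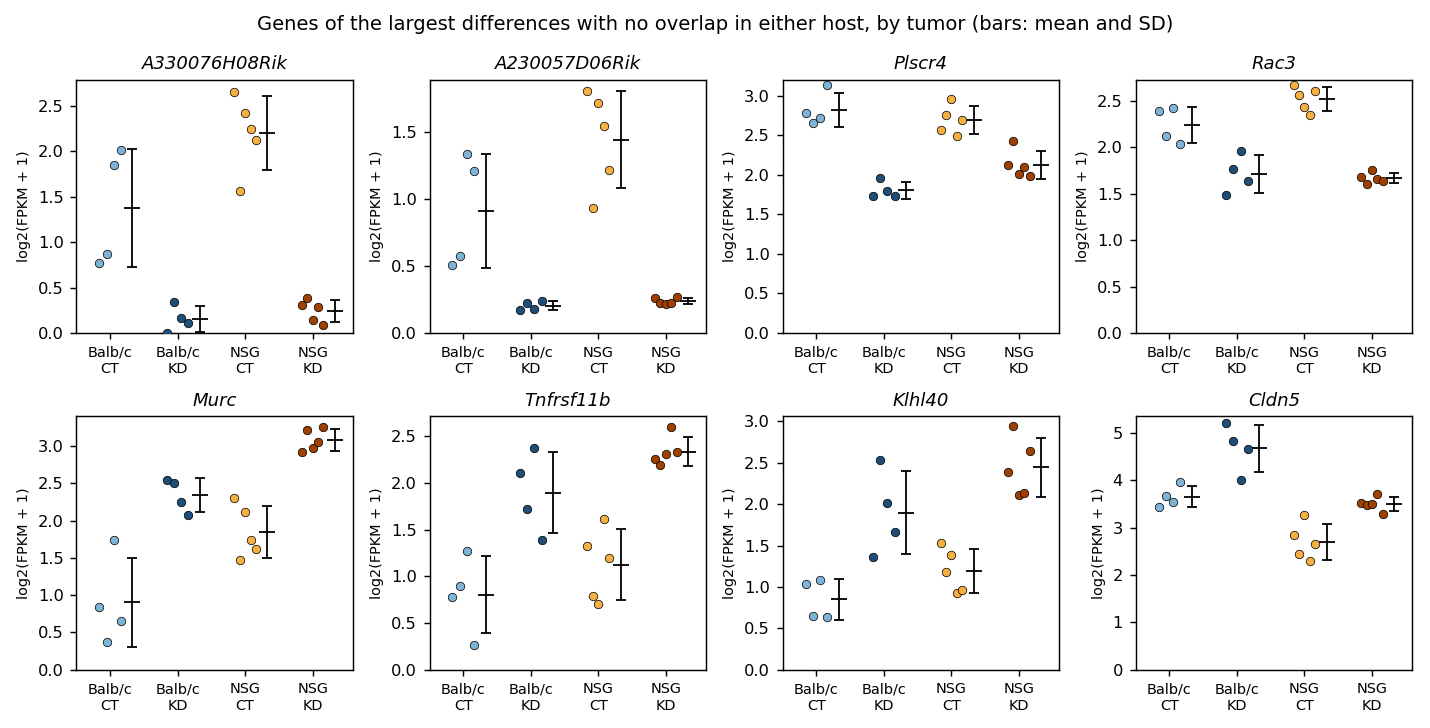
Level of 4 lower (top) and 4 higher (bottom) genes in each tumor, in log2(FPKM + 1), for control (CT) and knock-down (KD) tumors of both hosts; bars give the mean and SD of 4 or 5 tumors. In each panel the KD points of a host lie entirely on one side of its CT points, which was a condition for choosing these genes.

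Of the 38 cell type and pathway lists, 12 held a shared gene: 3 lists held a lower gene and 11 a higher one. Over all tested genes, 2.06% were shared, and 28.1% were negative and 27.1% positive in both hosts. The endothelial list held the most. Of its 12 tested genes, 5 were higher (Pecam1, Emcn, Cldn5, Esam and Plvap), 0 were lower and 11 were positive in both hosts, with a median difference of 0.65. Cldn5, a tight junction claudin of vessels, stood at 9.84, 11.8, 10.6 and 14.5 FPKM in Balb/c controls and at 35.8, 27.4, 15.0 and 24.3 FPKM in knock-down tumors. In NSG tumors Cldn5 stood at 6.18, 4.43, 8.69, 3.89 and 5.28 FPKM against 10.5, 10.2, 10.2, 12.2 and 8.84 FPKM. It did not overlap in either host (difference 0.90, SE 0.15, limma adjusted p = 0.00543). Plvap, a protein of the endothelial diaphragm, rose by 0.90 (SE 0.19, limma adjusted p = 0.0199) and Pecam1 by 0.75 (SE 0.17, limma adjusted p = 0.0308), with overlap of Plvap in Balb/c tumors and of Pecam1 in both hosts. Emcn and Esam overlapped in NSG tumors. The Pecam1 and Emcn calls were each lost in 7 of 28 alternatives, Emcn also when the length trend was removed, the Esam call in 5 and the Plvap call in 1. The list summed to 63.6 to 113.5 FPKM in Balb/c controls and 87.5 to 219.1 FPKM in Balb/c ATRX-KD tumors, and to 31.0 to 78.9 and 67.8 to 93.7 FPKM in NSG tumors. Further higher vessel genes outside the list, named after their values had been seen, included Egfl7 (0.66), Icam2 (0.61), the lipoprotein lipase anchor Gpihbp1 (0.64) and Angpt2 (0.55). Vessel genes outside the list also went the other way, since Thbd and Angpt1 were shared lower genes. Of 11 tested pericyte and smooth muscle genes only Kcnj8 was higher (0.45, SE 0.11, limma adjusted p = 0.0346), and the list's median was -0.02.

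The adipocyte and sterol synthesis lists held 1 and 2 shared genes, a larger share than the 2.06% of all tested genes. Over all tested genes, 27.1% were positive in both hosts. Of 10 adipocyte markers, 9 were positive in both hosts, with a median of 0.69. Only Pparg, the receptor that drives fat cell differentiation, was shared (0.62, SE 0.15, limma adjusted p = 0.0338). Its groups were apart in Balb/c mice and overlapped in NSG mice. The adipocyte sum for Balb/c mice was 88.3 to 110.2 FPKM among controls and 155.4 to 271.6 FPKM after the knock-down. For NSG mice the control range, 89.4 to 100.9 FPKM, lay inside the knock-down range of 63.8 to 374.1 FPKM. Of 18 sterol synthesis genes, 2 were shared higher genes, and 13 were positive and 0 negative in both hosts, with a median of 0.38. Sqle, the squalene epoxidase, rose by 0.69 (SE 0.11, limma adjusted p = 0.00543). Apoe, an apolipoprotein that macrophages secrete, fell from a mean of 816.7 to 302.4 FPKM in NSG tumors and from 1058 to 813.9 FPKM in Balb/c tumors (-0.998, SE 0.24, limma adjusted p = 0.0343). The efflux pump Abca1 fell by 0.83 (SE 0.20, limma adjusted p = 0.0343) and the cholesterol 25-hydroxylase Ch25h by 0.95 (SE 0.23, limma adjusted p = 0.0374). These 3 genes were named after their values had been seen, and belong to no list that was counted.

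Of 15 macrophage and monocyte genes, only the fractalkine receptor Cx3cr1 was shared, 9 were negative and 0 positive in both hosts, and the median was -0.33. Cx3cr1 stood at 15.2, 26.9, 30.0 and 19.2 FPKM in Balb/c controls and at 7.50, 4.10, 3.87 and 6.48 FPKM in knock-down tumors. In NSG tumors Cx3cr1 stood at 24.0, 5.09, 14.3, 10.3 and 6.03 FPKM against 11.4, 9.25, 1.69, 4.31 and 2.07 FPKM. The groups were apart in Balb/c mice and overlapped in NSG mice (difference -1.39, SE 0.32, limma adjusted p = 0.0322). The list summed to 2781 to 4567 FPKM in Balb/c controls and 2339 to 3943 FPKM in knock-down tumors, and to 3341 to 4551 and 2149 to 3764 FPKM in NSG tumors, so all its ranges overlapped. The macrophage receptors Stab1 (-0.82) and Siglec1 (-0.64), named after their values had been seen, were also shared lower genes. The part of macrophage content in the fall of Apoe, Abca1 and Cx3cr1 was not tested.

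The remaining lists can be set against all tested genes, of which 2.06% were shared and 27.1% were positive in both hosts. Hypoxia and glycolysis genes were positive in both hosts in 17 of 20 cases, with a median of 0.26; Car9, a carbonic anhydrase induced by low oxygen, and the transcription factor Bhlhe40 were shared (0.85 and 0.39, limma adjusted p = 0.0346 and 0.0171). Of 24 mitosis genes, Bub1b and Prc1 were higher, with a list median of 0.02 in Balb/c and 0.36 in NSG tumors. Of 30 genes of ATRX partners and heterochromatin, only Cbx3, which encodes the heterochromatin protein HP1 gamma, was higher (0.27, SE 0.06, limma adjusted p = 0.0229), while Daxx and H3f3a had differences of 0.15 and -0.13 (limma adjusted p = 0.407 and 0.770). The Cbx3 difference was 0.14 in Balb/c tumors, where its groups overlapped, and 0.37 in NSG tumors. Of 27 imprinted genes, Mest was higher and H13 was lower (0.85 and -0.28). Of 334 zinc finger genes, Zfp280d and Zfp653 were lower and Zfp599 was higher, a smaller share than the 2.06% of all tested genes. Of 16 Wnt pathway genes, the inhibitor Apcdd1 was higher (0.81, SE 0.19, limma adjusted p = 0.0335), with 0.37 in Balb/c and 1.15 in NSG tumors. The 26 lists without a shared gene had medians between -0.33 and 0.24. Among them were the 69 replication-dependent histones (41 positive and 1 negative in both hosts), the 19 mast cell genes (median -0.86 in Balb/c and 0.16 in NSG tumors), the 40 clustered protocadherins and the lists for telomere maintenance, p53 targets and interferon-stimulated genes.

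**Figure D4:**
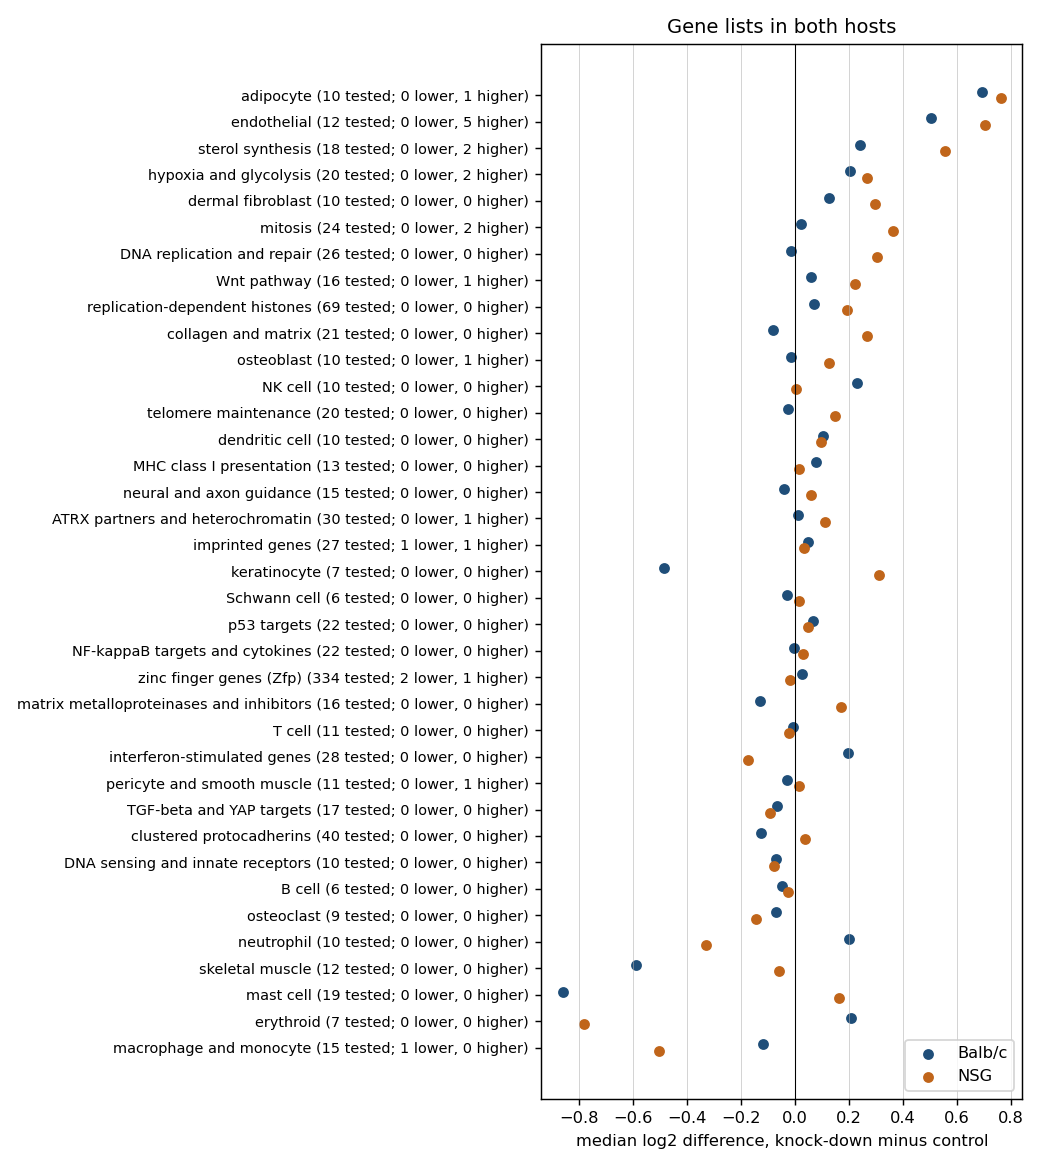
Median log2 difference (ATRX-KD minus ATRX-CT) over the tested genes of each list with at least 5 tested genes, in Balb/c (blue) and NSG (orange) tumors, with the number of shared lower and higher genes beside each name. The endothelial, adipocyte and sterol synthesis lists lie to the right of 0 in both hosts and the macrophage list to the left.

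The share of genes called differed between chromosomes. On chromosome 15, 31 genes were higher and 4 lower, 5.78% of its 606 tested genes against 2.06% of all. The median difference over its 495 genes that averaged 1 FPKM or more was 0.11 in Balb/c and 0.12 in NSG tumors, and 58.6% of them were positive in both hosts against 28.1% of all 12181 such genes. For each tumor, the median deviation of the genes of a chromosome from their means over all tumors was then taken, relative to the same median over all genes. For chromosome 15 it ran from -0.19 to -0.09 in Balb/c controls and from -0.11 to 0.06 in Balb/c ATRX-KD tumors, and from -0.06 to 0.07 and from 0.08 to 0.15 in NSG tumors. The NSG groups were apart, and 1 Balb/c knock-down tumor lay among the controls. The host-blocked difference was 0.12 (exact two-sided permutation test over tumors within hosts, p = 0.000454, adjusted p = 0.00907 over 20 chromosomes). It stayed between 0.11 and 0.13, with adjusted p from 0.00113 to 0.0204 (exact permutation), when each tumor was left out in turn. Positive medians were spread along the chromosome: of its 11 windows of 10 Mb, 10 had a positive median in Balb/c and 8 in NSG tumors, although 4 windows held fewer than 20 genes.

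Chromosomes 19 and 9 were shifted the other way in both hosts. Their host-blocked differences were -0.08 and -0.06 (exact permutation, adjusted p = 0.0295 for both), with 14 lower and 2 higher shared genes on chromosome 19 (2.97% of 539 tested) and 14 and 4 on chromosome 9 (2.19% of 821, near the 2.06% of all tested genes). These adjusted p reached 0.0605 when 1 tumor was left out. The X chromosome also passed (-0.12, exact permutation adjusted p = 0.0317), but its median was -0.02 in Balb/c and -0.21 in NSG tumors, and leaving out any of 12 tumors raised its adjusted p above 0.05. Atrx lies on this chromosome. The shared genes named above that lie on chromosome 15 include Tnfrsf11b, Nov, Kdelr3, Sqle and Gpihbp1, and the part of its shift in their differences was not tested. These are all higher genes, while 4 shared genes of chromosome 15 were lower. Without the genes of chromosome 15, 104 lower and 140 higher genes were called. Whether the DNA of the 2 cell populations differed in these chromosomes was not tested, since no DNA was measured in these files.

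**Figure D5:**
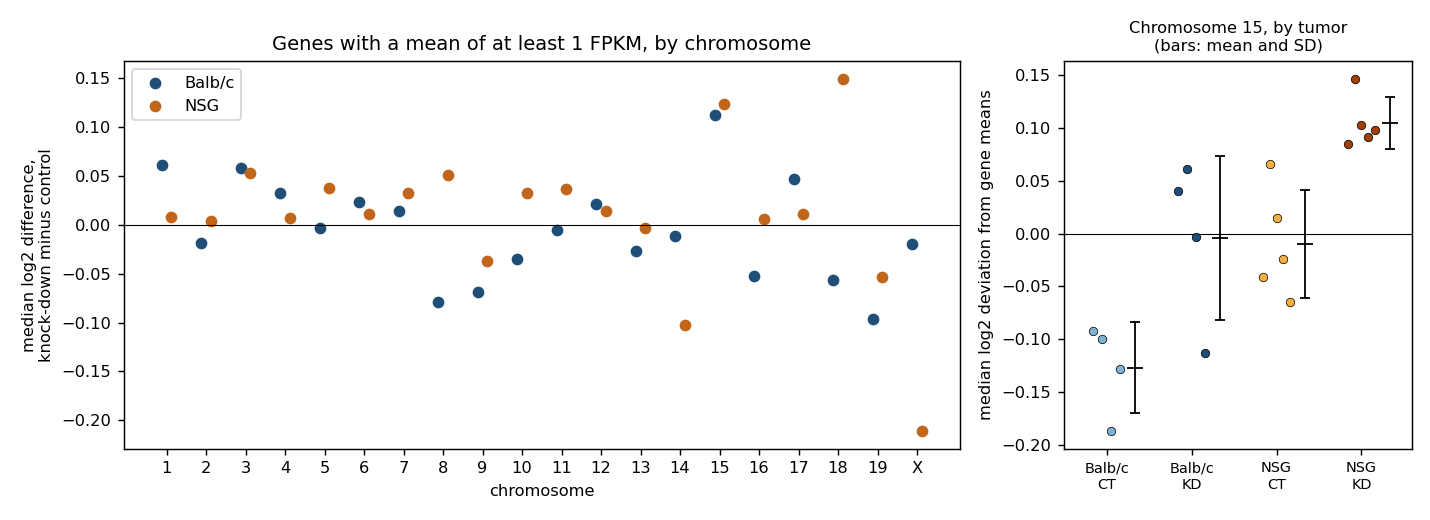
Left, median log2 difference (ATRX-KD minus ATRX-CT) of the genes of each chromosome that averaged 1 FPKM or more, in Balb/c (blue) and NSG (orange) tumors. Right, the median log2 deviation of the chromosome 15 genes in each tumor relative to all genes, with the mean and SD of each group; chromosome 15 is the highest in Balb/c tumors and lies above 0.1 in both hosts.

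The number of shared genes depended on single tumors. Leaving out the NSG ATRX-KD tumor of mouse 28, 29 or 30 left 43, 54 or 44 lower and 77, 83 or 79 higher genes, and leaving out the NSG ATRX-CT tumor of mouse 1, 4 or 5 left 62, 63 or 67 lower and 101, 99 or 107 higher genes. Leaving out the Balb/c tumors of mouse 45 (ATRX-CT) or 56 (ATRX-KD) raised the lower genes to 177 and 190. Of the 44 named genes other than Atrx, 23 kept their call in every alternative fit that tested them, and 0 reversed. These fits did not include the threshold of 1 on the log2 difference, each host alone or chromosome 15 left out. The A330076H08Rik, A230057D06Rik, Plscr4, Rac3, Pcca, Murc, Tnfrsf11b, Klhl40, Cldn5 and Sqle calls were among the 23, while of the endothelial calls Cldn5 alone was. The calls of Cx3cr1, Pparg, Car9, Phex, Apcdd1, Kcnj8, H13, Prc1, Zfp280d and Zfp653 were each lost in 10 to 15 of 28 alternatives.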

How the data were processed

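RNA of 18 tumors was measured from ribosomal-RNA-depleted stranded libraries (TruSeq Stranded Total RNA Gold). The authors deposited 1 matrix of log2(FPKM + 1) values. The submitters' processing notes name STAR 2.6.0c, Cufflinks 2.2.1 and DESeq, with the build mm10. FPKM were recovered as the power of 2 minus 1. FPKM were not whole multiples of 1 read (35.6 to 45.2% within 0.1 of a whole number), so no count test was run. The 92 ERCC spike-ins were left out.

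Genes averaging 0.1 FPKM or more were fitted in limma 3.58.1 (R 4.3.3; lmFit and eBayes with trend, pseudocount 1 FPKM) with the host as a block, with an interaction, and in each host alone. p-values were adjusted by Benjamini-Hochberg over all 14803 genes. Fitted replicates are tumors of different mice. The fit was also run on simulated data with independent normal noise for each gene. These data held no length trend and no correlation between genes, so they cannot show how the fit behaves where those are present. The named genes are Atrx, the 12 lower and 12 higher called genes of the largest difference among those without overlap in either host, and called members of the lists. Some items that this rule named are not reported here. Members and lists were chosen with earlier results of these data known. Alternatives were another pseudocount, filters, scalings, library weights, a threshold on the log2 difference, equal host weights, removal of the length trend (lowess, span 0.5), single tumors left out and, chosen after seeing the data, groups of tumors or chromosome 15 left out. The chromosome comparison was also chosen after seeing the data. Gene positions come from the deposited annotation, shared 75-base windows from GENCODE M21 transcripts (303 of 306 genes found), and promoters from RefSeq (GRCm38.p6). Python 3.11.15 was used for the chromosome test and the figures.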

Additional observations from a re-analysis of the deposited data

Results flagged for a closer look

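Among the 180 sets of tumors checked (45 named genes in 4 groups), 5 had 1 tumor far from the others of its group, where chance gives about 1 in 20. On the log2(FPKM + 1) scale, Atrx was 4.12 in mouse 27 (NSG, ATRX-KD), with the others between 3.24 and 3.31. Ddx26b was 3.84 in mouse 3 (NSG, ATRX-CT), with the others between 3.04 and 3.13. Both tumors were among the 6 with a positive slope along transcript length. In mouse 56 (Balb/c, ATRX-KD), also among those 6, Uchl3 was 5.00 against 5.49 to 5.55 and Pard6b was 1.55 against 0.96 to 1.06. Zfp599 in mouse 43 (Balb/c, ATRX-CT), again among the 6, was 1.32 against 1.15 to 1.17. The part of the length trend in these values was not tested.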

How the results depend on the processing

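The differences of Atrx and of the other 44 named genes kept their sign in every alternative fit that tested them. Counts of genes have no sign to reverse, and several of them moved. With the length trend removed from each library, the shared genes numbered 293 lower and 365 higher (280 of the 305 kept), genes called in NSG tumors with the same sign in Balb/c tumors rose from 703 to 1203, and Atrx (-0.48, limma adjusted p = 0.0162) passed the test. With library weights and a robust prior there were 1065 lower and 1138 higher genes, an interaction in 1985 genes, 2813 NSG calls and 11 Balb/c calls with the same sign in the other host, and an Atrx difference of -0.70 (limma adjusted p = 0.00764). A threshold of 1 on the log2(FPKM + 1) difference left 6 lower and 10 higher genes, and an unadjusted p under 0.05 in each host alone gave 114 higher (and 103 lower) genes. Without a filter on low values, 1 gene called in Balb/c tumors had the same sign in NSG tumors, against 0. Without the 6 tumors of positive length slope, a choice made after seeing the data, there were 369 lower and 581 higher genes, 2 genes with an interaction, 1198 NSG calls of the same sign and an Atrx difference of -0.66 (limma adjusted p = 0.0159). Without 2 Balb/c tumors left out for their keratinocyte genes (mouse 45 and 60), also chosen later, 1 gene had an interaction. All NSG tumors were kept in that fit, although the keratinocyte list reached 18.3 FPKM in NSG ATRX-KD tumors. It reached 95.5 FPKM in Balb/c ATRX-CT and 16.3 FPKM in Balb/c ATRX-KD tumors. Without single tumors, lower genes ranged from 43 to 190, higher genes from 77 to 231, interactions from 0 to 1, NSG calls of the same sign from 110 to 1223 and Balb/c calls of the same sign from 0 to 1. The Atrx difference then ranged from -0.67 to -0.48 (limma adjusted p = 0.0788 to 0.289). The causes of these changes were not tested. No paired analysis was possible because the groups compared share no replicate numbers. Of the 305 shared genes, 13 had a tumor at or under the estimated level of 3 fragments, and for 4 of them a whole group was there, so their differences are not bounds.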
